A study of Mus musculus with 12 samples.

Results

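Circadian clock genes were examined in rod photoreceptors and whole retina of mice with and without pyruvate kinase M2 in rods. The set held 10 genes chosen by name, Clock, Per1, Per2, Per3, Cry1, Cry2, Nr1d1, Nr1d2, Dbp and Ciart, out of 56748 genes in the table, and each had 1 entry. Rod RNA was obtained by translating ribosome affinity purification (Rod-TRAP): the mice were homozygous for the RiboTag allele, in which Cre places an HA epitope on a ribosomal protein, and i75 rhodopsin-Cre limited that tag to rods, so that RNA bound to rod polyribosomes was pulled down from the retinal lysate. The lysate before the pull-down gave the retina RNA. Both genotypes carried Cre. Control mice, designated WT, had 1 floxed Pkm2 allele (Pkm2 fl/+), so their rods were heterozygous rather than unmodified, and Pkm2Rodko mice (Pkm2 fl/fl) were floxed at both alleles. There were 3 libraries in each of 4 groups, control rods, Pkm2Rodko rods, control retina and Pkm2Rodko retina. Age is given as 2 weeks in the description deposited with the data and as 2 months in the methods, and whether a library came from 1 animal or from pooled animals is not given in the sources used here. The time of day of collection is not given either. The mice lived in a light/dark cycle, so the values below are levels at an unknown clock time and no phase can be assigned to them.

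The circadian clock is a feedback loop of transcription factors. CLOCK pairs with BMAL1 (gene Arntl), binds E-box elements and switches on the Per and Cry genes, whose proteins return to the nucleus and block CLOCK and BMAL1. REV-ERB alpha and beta (Nr1d1 and Nr1d2) repress Arntl through elements that the ROR receptors use to activate it. Dbp, a PAR-bZIP factor that binds D-boxes, and Ciart, also called Chrono, a repressor of CLOCK and BMAL1, are driven by E-boxes and are known for wide daily swings in many tissues. The retina has a clock of its own, known for its part in dopamine and melatonin rhythms and in photoreceptor outer segment renewal.

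The 12 libraries held between 13458890 and 22790074 reads counted on genes. All 10 rod markers, Gnat1 among them, were higher in rods than in retina (median log2 difference 1.89). The 8 Müller, 8 amacrine and 8 ganglion cell markers were all lower (medians -2.89, -3.28 and -3.36), as were all 8 cone markers (median -0.66) and all 6 pigment epithelium markers (median -2.54). Of 8 bipolar markers 6 were lower (median -3.09), Otx2, which photoreceptors also use, was higher, and Prkca was not called. Pkm, the targeted gene, was lower in Pkm2Rodko than in control mice both in rods (log2 -1.202, adjusted p = 5.36e-05 from limma) and in retina (log2 -0.65, adjusted p = 0.0219 from limma).

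The promoters of the members differ in the clock elements they carry, which is why 4 of them are shown. A 250-base window upstream of the transcription start was available for 9 of the 10 members in RefSeq on build GRCm38.p6, 12 windows in all because Clock and Per1 had several starts. The E-box CACGTG, which CLOCK and BMAL1 bind, stood in a window of 3 members, the D-box TTATGTAA, which Dbp and its relatives bind, in that of 1 member, and AGGTCA, the core that ROR and REV-ERB receptors recognise, in a window of 3 members. Over all 32851 RefSeq windows of this length, 6.02% held the E-box, 0.819% the D-box and 14% the receptor core. These shares are per window, whereas the members were counted as genes, some with several windows, so the figures are not like for like. All were searched on both strands and do not overlap each other here, and the E-box reads the same on both. The windows below read 5′ to 3′ along the gene with these motifs in capitals. The Ciart window (chr3:95882229-95882478, minus strand) held 3 E-boxes, at 116, 58 and 44 bases before the start. The Cry1 window (chr10:85185055-85185304, minus strand) held 1 E-box at 60 bases. The Per1 window of the upstream start (chr11:69098699-69098948, plus strand) held 1 E-box at 166 bases and 1 receptor core, on the opposite strand, at 137 bases. The Per3 window (chr4:151044666-151044915, minus strand) held D-boxes at 205 and 158 bases. Clock and Nr1d2 each had 1 receptor core, and none of the 3 motifs stood in the windows of Cry2, Dbp or Nr1d1. A match marks these letters only and not a bound site.
Ciart promoter: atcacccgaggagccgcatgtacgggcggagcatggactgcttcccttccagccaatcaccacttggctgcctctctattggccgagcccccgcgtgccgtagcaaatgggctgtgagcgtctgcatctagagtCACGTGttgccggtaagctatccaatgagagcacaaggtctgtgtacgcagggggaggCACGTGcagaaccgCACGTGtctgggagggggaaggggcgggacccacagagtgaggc
Cry1 promoter: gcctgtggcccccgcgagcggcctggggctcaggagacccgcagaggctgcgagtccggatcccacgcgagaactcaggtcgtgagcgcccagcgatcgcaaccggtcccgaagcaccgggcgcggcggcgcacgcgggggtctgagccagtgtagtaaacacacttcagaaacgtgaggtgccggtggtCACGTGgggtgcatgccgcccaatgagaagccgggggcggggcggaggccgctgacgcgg
Per1 promoter: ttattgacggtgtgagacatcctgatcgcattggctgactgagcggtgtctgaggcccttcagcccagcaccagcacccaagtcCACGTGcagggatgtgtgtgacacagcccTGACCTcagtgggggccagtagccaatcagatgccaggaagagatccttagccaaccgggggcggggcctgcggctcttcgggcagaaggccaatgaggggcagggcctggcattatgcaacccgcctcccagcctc
Per3 promoter: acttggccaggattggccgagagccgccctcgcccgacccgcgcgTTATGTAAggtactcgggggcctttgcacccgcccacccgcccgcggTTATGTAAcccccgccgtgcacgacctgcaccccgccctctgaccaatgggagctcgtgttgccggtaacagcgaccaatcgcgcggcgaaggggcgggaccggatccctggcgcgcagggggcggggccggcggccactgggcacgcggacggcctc

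All 10 members were measured in all 12 libraries, and all passed the filter on low values. Levels of rods and retina were set on a common scale, on which reads were scaled by TMM over the 12 libraries to a mean effective library of 18053709 reads. Nr1d1 was the member with the most reads per kilobase of exon in both fractions, with 1172 ± 50.7 (SD, n = 6) in rods and 1166 ± 43.2 in retina. The exon length was that of all annotated exons of a gene merged, not of the transcripts present. The order between genes depends on it, and the SD and overlap of libraries do not include this. Below Nr1d1 the order differed between the fractions. In rods Cry1 came next with 554 ± 52.3 reads per kilobase, then Nr1d2 with 480 ± 29.2, and their libraries overlapped. Per1 (232 ± 25.5), Cry2 (155 ± 17.7) and Dbp (105 ± 17.7) followed without overlap from one to the next, Clock (94.3 ± 12.8) overlapped with Dbp, Per3 (64.7 ± 5.67) stood apart, and Per2 (26.9 ± 5.80) and Ciart (24.7 ± 11.5) overlapped at the bottom. In retina Nr1d2 (590 ± 23.7) and Cry2 (350 ± 24.2) stood apart from their neighbours. Dbp (286 ± 24.4), Cry1 (272 ± 21.5) and Per1 (225 ± 16.2) formed a run in which each overlapped with the next, as did Clock (164 ± 9.02) with Per3 (146 ± 11.8) and Ciart (114 ± 15.7) with Per2 (88.7 ± 10.01). Arntl, which is not a member, stood in rods between Nr1d2 and Per1 with 432 ± 34.8 reads per kilobase, overlapping Nr1d2, and in retina between Per1 and Clock with 188 ± 22.1, overlapping both.

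**Figure D1:**
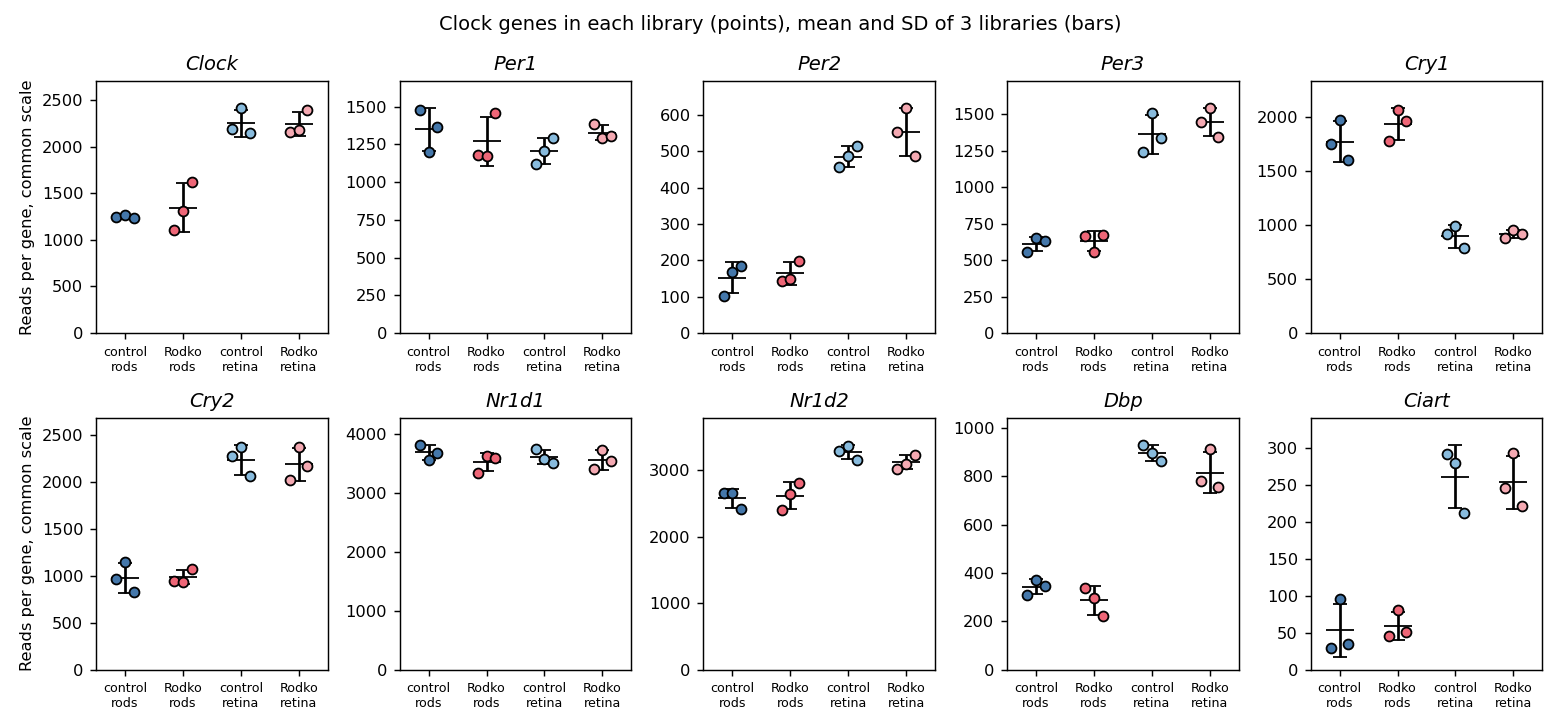
Reads per gene on the common scale (y axis, from 0) for each of the 10 clock genes in the 4 groups (x axis); points are libraries, and the horizontal line and bar give the mean and SD of 3 libraries. Cry1 is the member whose rod libraries all lie above its retina libraries, Per1 and Nr1d1 overlap between the fractions on this scale (both were called lower in rods with total scaling), and the other 7 lie lower in rods.

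The comparison of rods with retina asks which clock transcripts rod polyribosomes hold more or less of than the tissue as a whole. Cry1 was 2.04-fold higher in rods, Per1 and Nr1d1 were not called with TMM scaling but were called lower with total scaling, and Clock, Per2, Per3, Cry2, Nr1d2, Dbp and Ciart were lower, from 1.23-fold for Nr1d2 to 4.90-fold for Ciart. So 8 of 10 members passed an adjusted p of 0.05 (limma with Benjamini-Hochberg adjustment), against 69.6% of the 25584 genes tested. In the higher direction it was 1 of 10 members against 27.1% of all genes, and in the lower direction 7 of 10 against 42.5%. The median log2 difference was -0.99 for the members and -0.39 for all genes. These shares include genes with few reads and depend on the filter. Of the 12918 genes with at least 10 reads in every library, as the members had, 6670 were higher and 3912 lower. The median of those genes was 0.25. The libraries of the fractions lay apart for 8 of 10 members, against 49.4% of all genes. In bulk RNA fewer cells of a type and less RNA per cell cannot be told apart, and here a lower RNA level in rods and less loading on ribosomes cannot be told apart either. The call shares depend on the scale: with reads scaled by library total, 2734 genes were higher and 14901 lower, against 6939 and 10870 with TMM, and the median of all genes moved from -0.39 to -0.74. With total scaling the 7 lower members stayed called and lay further down, with log2 differences of -0.87 for Nr1d2 (-0.30 with TMM), -1.37 for Clock (-0.80), -1.74 for Per3 (-1.18), -1.75 for Cry2 (-1.18), -2.02 for Dbp (-1.46), -2.30 for Per2 (-1.74) and -2.85 for Ciart (-2.29). The sign of the members with a small difference changed with the scale, as given for Per1 and Nr1d1 below. Markers of the other retinal cell types move with this contrast, as given above, and their part in the lower members was not tested.

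In the positive arm, Clock had between 1100 and 1622 common-scale reads in the 6 rod libraries (median 1252) and between 2144 and 2413 in the 6 retina libraries (median 2183). All rod libraries lay below all retina libraries, a log2 difference of -0.80 (standard error 0.078, adjusted p = 1.38e-07 from limma). Its partner Arntl went the other way, with 2943 to 3569 reads in rods (median 3252) and 1159 to 1638 in retina (median 1430), a log2 difference of 1.205 (standard error 0.077, adjusted p = 9.19e-10 from limma). Every rod library lay above every retina library for Arntl, and its difference was above that of 96.5% of genes. Npas2, a relative of Clock that can replace it, was lower in rods (log2 -1.78, adjusted p = 5.11e-06 from limma), at 7.95 to 19.0 common-scale reads against 38.0 to 66.6, as was Arntl2 (log2 -2.32), the relative of Arntl, which was at 0 in at least 1 rod library and had no more than 15.9 reads in any.

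Among the Period genes, which encode the repressors that accumulate over the day, Per2 had 103 to 199 common-scale reads in rods (median 158) and 456 to 619 in retina (median 501). Its log2 difference was -1.74 (standard error 0.133, adjusted p = 7.90e-09 from limma), or 3.33-fold lower. Per3 had 553 to 672 reads in rods (median 640) and 1245 to 1543 in retina (median 1398), a log2 difference of -1.18 (adjusted p = 6.09e-10 from limma), and for both genes the fractions lay apart. Per1 had 1169 to 1480 reads in rods (median 1283) and 1121 to 1384 in retina (median 1292). The Per1 libraries of the fractions overlapped, and the log2 difference was 0.043 with a 95% interval from -0.11 to 0.19 (adjusted p = 0.600 from limma), while with reads scaled by total it was -0.52, on the deposited values, scaled within each fraction, -0.56 (both called lower), and with RLE scaling -0.0272. The interval of Per1 lay above those of Per2 (-2.02 to -1.45) and Per3 (-1.33 to -1.02) in the same libraries.

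The Cryptochrome genes, whose proteins are the main blockers of CLOCK and BMAL1, went in opposite directions. Cry1 had 1596 to 2065 common-scale reads in rods (median 1865) and 782 to 990.5 in retina (median 917). Every rod library lay above every retina library, and the log2 difference of 1.03 (standard error 0.071, adjusted p = 2.35e-09 from limma) was above that of 93.9% of genes. Cry2 had 824 to 1144 reads in rods (median 959) and 2024 to 2376 in retina (median 2223), a log2 difference of -1.18 (standard error 0.077, adjusted p = 1.25e-09 from limma). The ratio of the pair was therefore reversed, with Cry1 above Cry2 per kilobase in rods and Cry2 above Cry1 in retina, and the libraries of the pair did not overlap in either fraction. Within a library this order does not depend on how the fractions are scaled. Cry1 and Arntl stayed higher in rods under total scaling (log2 0.46 and 0.64) and on the deposited values (0.43 and 0.61). Reads of Cry2 could include some of D930015M05Rik, which overlaps 295 bases of its exons (4.67%) on the opposite strand, since the strand setting of the counting is not given in the sources used here.

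With TMM scaling Nr1d1 and Nr1d2, the heme-binding REV-ERB repressors, showed the smallest differences of the members besides Per1. This order depends on the scale: with total scaling the smallest log2 difference was that of Cry1 (0.46), and Nr1d2 was at -0.87. Nr1d1 had 3347 to 3820 common-scale reads in rods (median 3615) and 3403 to 3745 in retina (median 3564), and the fractions overlapped. Its log2 difference was 0.0079, with a 95% interval from -0.093 to 0.11 (adjusted p = 0.887 from limma), and it turned to -0.56 with total scaling and -0.59 on the deposited values, both called lower, and to -0.0622 with RLE. Thra overlaps 263 bases (8.55%) of the Nr1d1 exons on the opposite strand. Nr1d2 had 2405 to 2806 reads in rods (median 2648) and 3022 to 3367 in retina (median 3189), a log2 difference of -0.30 (adjusted p = 9.87e-05 from limma) with the fractions apart. Among the ROR receptors, which act on the same elements, Rora (log2 0.60) and Rorb (0.63), a receptor needed for rod development, were higher in rods with TMM, were not called with total scaling (0.029 and 0.065), and on the deposited values were also not called, with Rora at -0.00344.

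The output genes Dbp and Ciart were among the members most reduced in rods. Dbp had 221 to 372 common-scale reads in rods (median 325) and 754 to 931 in retina (median 880.2), a log2 difference of -1.46 (standard error 0.096, adjusted p = 1.32e-09 from limma), or 2.74-fold lower. Sphk2 overlaps 539 bases (18.01%) of the Dbp exons on the opposite strand. Ciart, with the 3 E-boxes shown above, had 29.5 to 94.9 reads in rods (median 47.9) and 212 to 292 in retina (median 262). The fractions lay apart for both genes, and Ciart had the lowest log2 difference of the members, -2.29 (standard error 0.238, adjusted p = 3.19e-07 from limma). The value of Ciart in rods rests on 18 to 102 recovered reads per library. Of the 3 members with this E-box in a window, Ciart was lower in rods, Cry1 was higher and Per1 was not called with TMM scaling. Whether the motif bears on these differences was not tested. Of the other 5 bZIP and bHLH output factors, 3 were lower in rods, Tef (log2 -0.60) and Hlf (-2.17), the PAR-bZIP relatives of Dbp, and Bhlhe40 (-3.08), an E-box repressor. Nfil3 (0.64), which competes with Dbp at D-boxes, and Bhlhe41 (0.60), a relative of Bhlhe40, were higher with TMM but were not called with total scaling (0.073 and 0.028), and on the deposited values Bhlhe41 was at -0.00415.

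**Figure D2:**
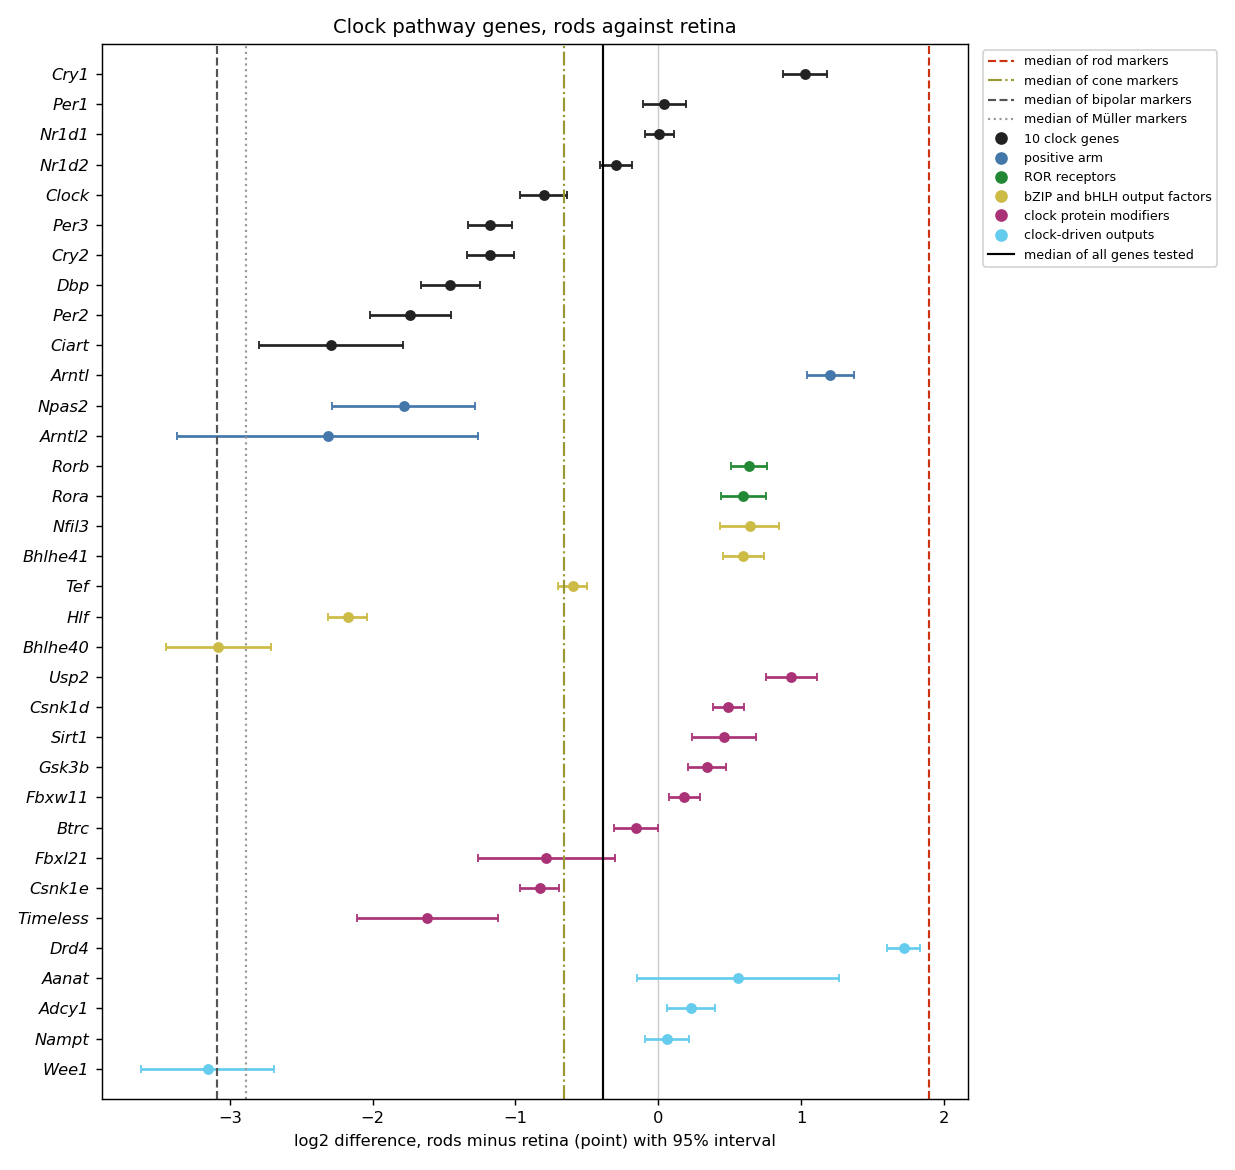
Log2 difference, rods minus retina, on the common scale (x axis) with 95% intervals from limma for the 10 clock genes and 24 other clock pathway genes (y axis), coloured by list; vertical lines mark the medians of cell type marker lists and of all genes tested. Cry1 and Arntl lie above 1, Per1 and Nr1d1 have intervals that include 0 on this scale (with total scaling they were at -0.52 and -0.56), and Ciart lies at -2.29, above the Müller marker median of -2.89.

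Of 10 genes that modify clock proteins, 6 were higher in rods and 3 lower with TMM scaling (median log2 difference 0.26). Among the higher ones Usp2 (0.93), a deubiquitinase, stayed above 0 with total scaling, whereas Csnk1d (0.49), a kinase of Period proteins, Sirt1 (0.46), Gsk3b (0.34) and Fbxw11 (0.18) were at -0.0771, -0.11, -0.23 and -0.39 with it. Csnk1e (-0.83), Fbxl21 (-0.78) and Timeless (-1.62) were lower, and Btrc was at -0.15 (adjusted p = 0.0656 from limma), but was called lower with total scaling (-0.72, adjusted p = 1.66e-07), on the deposited values (-0.75) and with RLE (-0.22, adjusted p = 0.00972). Of 5 genes known as clock-driven outputs, Drd4 (1.72), the dopamine receptor of photoreceptors, and Adcy1 (0.23, but -0.34 with total scaling) were higher and Wee1 (-3.16), a cell cycle kinase, was lower. Aanat, the enzyme of melatonin synthesis, had 0.948 to 5.43 common-scale reads in any library, so a difference was not detectable at this depth (log2 0.56, adjusted p = 0.148 from limma). Of 8 acutely induced genes, which respond to light or stress within a short time, Sgk1 (1.53), Junb (0.90), Fos (0.62) and Fkbp5 (0.58) were higher, and Tsc22d3 (-0.78) and Sik1 (-0.51) were lower. Fos, Junb and Fkbp5 were not called with total scaling (0.057, 0.33 and 0.017), and Fkbp5 was at -0.015 on the deposited values.

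The comparison of genotypes asks whether loss of Pkm2 in rods changed clock transcripts. In rods none of the 10 members passed an adjusted p of 0.05, where 4 of 20658 genes (0.0194%) did. None had an unadjusted p under 0.05 either, against 4.77% of all genes, and edgeR's quasi-likelihood test and DESeq2 also called 0 members. The members' log2 differences, Pkm2Rodko minus control, ran from -0.27 for Dbp to 0.30 for Ciart, with 7 above and 3 below 0 and a median of 0.041 (0.006 for all genes). The genotypes overlapped for 10 of 10 members, where 9.89% of all genes did not overlap.

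Dbp in rods had deposited values of 242.2, 291.8 and 269.9 in control libraries 1 to 3 and 264.6, 235.8 and 174.3 in Pkm2Rodko libraries 1 to 3. The genotypes overlapped, with 1 Pkm2Rodko library between the control libraries and 2 below them. The log2 difference of -0.27 had a 95% interval from -0.62 to 0.082 (adjusted p = 0.932 from limma), and without Pkm2Rodko rods 3 it was -0.097. Markers of other retinal cells also had negative values in this comparison, although none was called. An unadjusted p under 0.05 from limma was reached by 6 of 8 Müller, 4 of 8 amacrine, 4 of 8 bipolar and 2 of 8 ganglion markers. For all genes this share was 4.77%, and 0 of the rod, cone and pigment epithelium markers reached it. The log2 difference was below 0 for 7 of 8 amacrine markers (median -0.58), 8 of 8 Müller markers (median -0.38), 8 of 8 ganglion markers (median -0.43) and 6 of 8 bipolar markers (median -0.45). The summed common-scale level of the amacrine markers was 1472 to 2047 in control rods and 1270 to 1345 in Pkm2Rodko rods, that of the Müller markers 11011 to 13850 and 8886 to 10672, that of the ganglion markers 1221 to 1695 and 906 to 1468, and that of the bipolar markers 12904 to 13351 and 11711 to 13960. No marker of these 4 lists was at 0 in any library. Their part in the Dbp value was not tested.

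Ciart in rods had deposited values of 23.1, 74.4 and 27.1 in control and 35.5, 63.2 and 39.6 in Pkm2Rodko libraries 1 to 3. Library 2 was the high one in each genotype. Its log2 difference of 0.30 had an interval from -0.56 to 1.16 (adjusted p = 0.943 from limma), and without control rods 1 it was -0.012. Per2, the negative-arm gene with the fewest reads in rods after Ciart, had 80.7, 131.3 and 143 in control and 112.5, 116.8 and 156.8 in Pkm2Rodko rods. These overlapped, with a log2 difference of 0.15 (interval -0.34 to 0.63) that was -0.11 without control rods 1 and -0.0032 without Pkm2Rodko rods 3. Cry1, the member raised in rods, had 1366.1, 1541.5 and 1237.3 in control and 1380.7, 1629.3 and 1541.4 in Pkm2Rodko rods, a log2 difference of 0.14 (interval -0.087 to 0.36) that was 0.061 without control rods 3, 0.084 without Pkm2Rodko rods 2 and 0.22 without control rods 2. Of the others, Clock was at 0.10, Per3 at 0.051, Nr1d2 at 0.030 and Cry2 at 0.027, and Nr1d1 (-0.058) and Per1 (-0.082) were below 0. The narrowest interval, that of Nr1d1, ran from -0.23 to 0.12 on the log2 scale.

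In retina none of the members passed either, where 1 of 25590 genes (0.00391%) did, and 0 members had an unadjusted p under 0.05 against 4.18% of all genes. edgeR's quasi-likelihood test and DESeq2 called 0 members. Per1 was the member whose genotypes lay apart, 1 of 10 where 9.29% of all genes did so. It had deposited values of 1314, 1428.1 and 1526.9 in control and 1639.3, 1539.2 and 1574.4 in Pkm2Rodko retina. The log2 difference was 0.16 (interval -0.017 to 0.33, unadjusted p = 0.0727 and adjusted p = 0.947 from limma; 0.10 without control retina 1), with all 3 Pkm2Rodko libraries above all 3 control libraries. Per2 had 534.7, 575.5 and 609 in control and 654.1, 736.1 and 587.7 in Pkm2Rodko retina, where 2 Pkm2Rodko libraries lay above the control libraries and the third among them. Its log2 difference was 0.20 (interval -0.026 to 0.42, adjusted p = 0.947 from limma), which was 0.12 without Pkm2Rodko retina 2, and that of Per3 was 0.10. Dbp had 1090.9, 1062.6 and 1021.6 in control and 924.1, 1085.2 and 910.1 in Pkm2Rodko retina, and its log2 difference was -0.13 (interval -0.32 to 0.068). The remaining 6 members lay between -0.053 for Nr1d2 and 0.058 for Cry1. Markers of other cells moved here too, with none called: the log2 difference was below 0 for 8 of 8 bipolar (median -0.14), 8 of 8 Müller (median -0.16), 7 of 8 cone (median -0.12), 7 of 8 ganglion (median -0.058) and 6 of 8 amacrine markers (median -0.051), and above 0 for 9 of 10 rod markers (median 0.10) and 4 of 6 pigment epithelium markers (median 0.48). The summed common-scale level of the cone markers was 16279 to 17288 in control and 15160 to 15772 in Pkm2Rodko retina, which did not overlap, that of the bipolar markers 21772 to 22982 and 18069 to 21853, and that of the Müller markers 77103 to 89063 and 71663 to 77136. None of these markers was at 0 in any retina library. Their part in the Per1 and Per2 values was not tested.

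**Figure D3:**
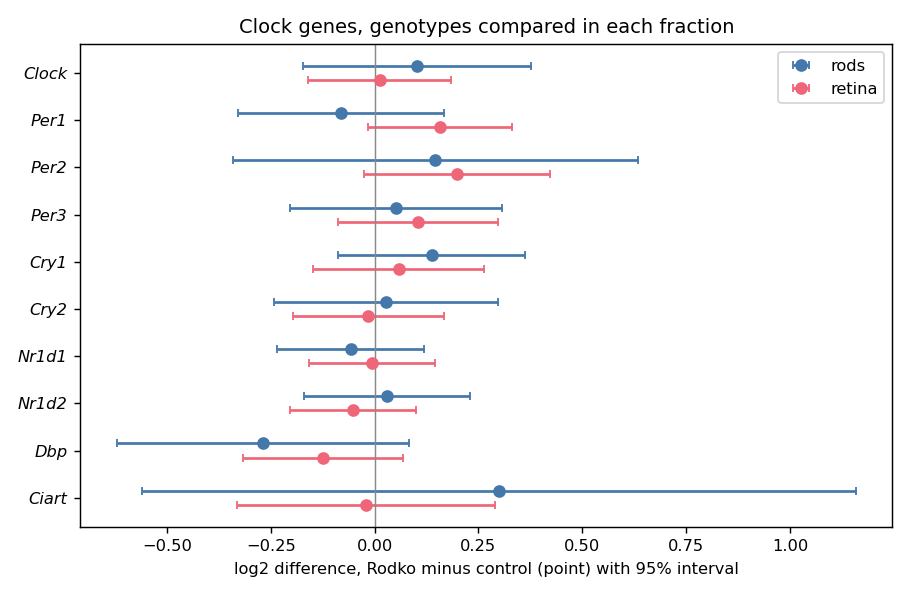
Log2 difference, Pkm2Rodko minus control, with 95% intervals from limma (x axis) for the 10 clock genes (y axis) in rods and in retina, 3 libraries against 3 in each. Every interval includes 0, and that of Ciart in rods is the widest, from -0.56 to 1.16.

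Of the 34 other genes in the 6 lists, which are clock pathway genes and 8 acutely induced genes, 0 were called in rods and 0 in retina by limma. In rods 0 of the 34 had an unadjusted p under 0.05, against 4.77% of all genes, and in retina 3 of the 34 did, against 4.18%. The 3 in retina were Adcy1 (log2 0.25, unadjusted p = 0.00413), Sik1 (0.38, unadjusted p = 0.0208) and Drd4 (0.19, unadjusted p = 0.0227), each with an adjusted p of 0.947 from limma. All 8 acutely induced genes were above 0 in retina, with a median log2 difference of 0.17 and none called, and 5 of 8 were above 0 in rods, with a median of 0.075.

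The genotype effects in rods and in retina were compared in 1 fit of the 12 libraries. The difference of the effects passed for 0 of 10 members and for 0 of 25584 genes (0%) in limma, where 1128 genes and 0 members had an unadjusted p under 0.05, and edgeR called 0 genes and DESeq2 1 gene, which was not a member. The members ranged from -0.23 for Per1 (interval -0.53 to 0.072) to 0.33 for Ciart (interval -0.68 to 1.34).

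Because the collection times are unknown, the spread between libraries of 1 genotype was described for each member, in log2 units, pooled over the genotypes of a fraction. Ciart spread most in both fractions, with an SD of 0.70 in rods and 0.22 in retina. Per2 (0.36), Dbp (0.24), Clock (0.20) and Cry2 (0.19) followed in rods, and Nr1d1 spread least there (0.063). In retina the other members lay between 0.056 for Nr1d2 and 0.13 for Per2. The median SD was 0.18 in rods and 0.11 in retina. All 10 members spread more in rods than in retina. The SD of all genes at a member's level in that fraction was also higher in rods for each member. It was 0.127 against 0.098 at the levels of Clock and 0.349 against 0.151 at those of Ciart. The share of all genes with a larger spread in rods was not counted.

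Part of this spread goes with level, since genes with fewer reads vary more. Set against the trend of all genes at the same level, 7 of 10 members spread more than the trend in rods, where 46.05% of all genes did, with a median ratio of 1.33 (0.957 for all genes). Ciart was at 2.01 times the trend SD in rods, Clock at 1.61, Per2 at 1.59, Cry2 at 1.42, Dbp at 1.34 and Per1 at 1.32. Larger ratios than those of the members were found among the acutely induced genes. Egr1 was at 4.33 times the trend SD in rods and 5.21 in retina, and Junb at 3.02 and 2.83. Fos (1.87) and Nr4a1 (1.84) were above the trend in rods too, whereas Sik1, Fkbp5, Tsc22d3 and Sgk1 were below it there. Counting alone would give Ciart an SD of 0.247 and Per2 one of 0.136 in rods. Nr1d1 was at 0.561 of the trend SD, so that its largest deposited value in the 6 rod libraries was 1.15 times its smallest, against 3.22 times for Ciart, 1.94 for Per2 and 1.67 for Dbp. In retina 5 of 10 members spread more than the trend, where 45.4% of all genes did, with a median ratio of 1.03 (0.952 for all genes), and the largest value of Ciart there was 1.39 times the smallest. No test was made of these ratios.

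**Figure D4:**
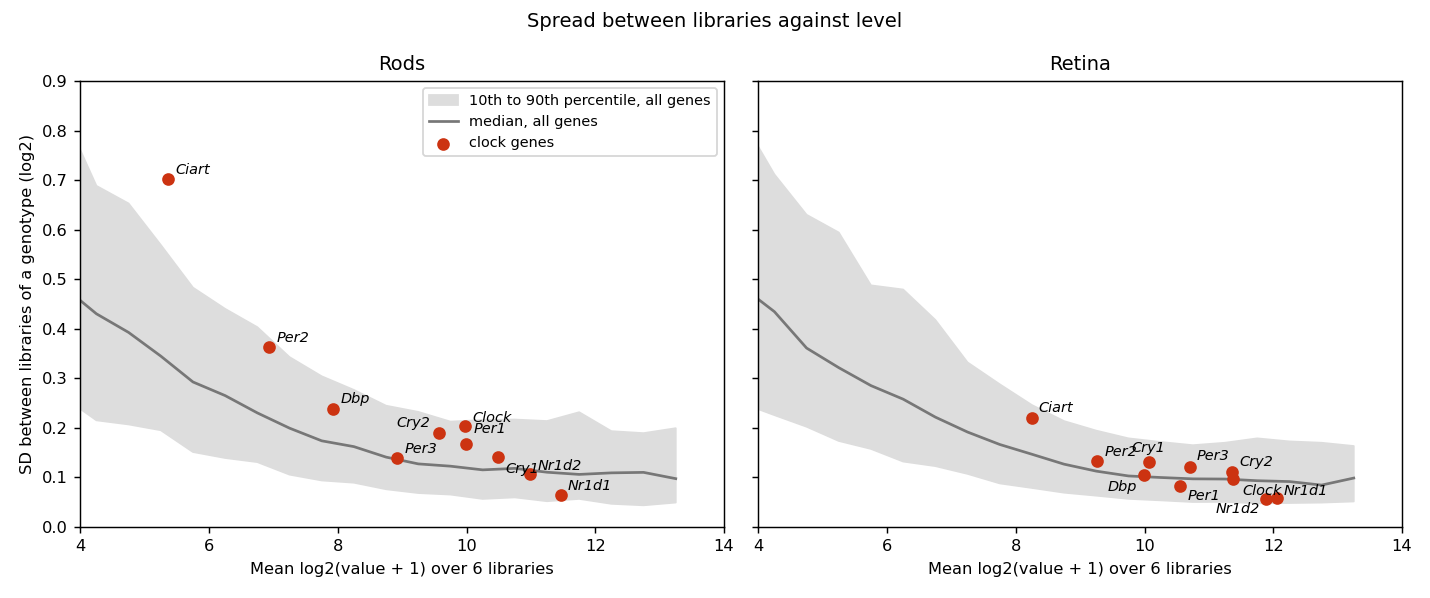
SD between libraries of 1 genotype in log2 units (y axis) against mean log2(value + 1) over the 6 libraries of a fraction (x axis), for the 10 clock genes (points) in rods and in retina; the line and the grey band give the median and the 10th to 90th percentile of all genes at that level. Ciart in rods, at 0.70, lies above the band, and Nr1d1 and Nr1d2 lie near its lower edge in retina.

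Single libraries carried much of the spread in rods. Without control rods 2 the SD of Ciart was 0.36, and without control rods 1 that of Per2 was 0.22. Without Pkm2Rodko rods 3, the library highest in Clock and lowest in Dbp, the SD of Clock was 0.11 and that of Dbp 0.13, and without Pkm2Rodko rods 1 that of Clock was 0.13 and that of Nr1d1 0.041. Control rods 2, high in Ciart, was the most deeply sequenced library (22790074 reads) and had the highest summed amacrine level of the rod libraries (2047), whereas Pkm2Rodko rods 2, the next highest in Ciart, had 16247040 reads and the lowest amacrine level (1270). Control rods 2 was also the lowest rod library in the summed level of the 6 pigment epithelium markers, with 259.6 against 907 and 1213 in control rods 1 and 3, and the retina library of the same number had 1276 against 5502 and 5895. Pkm2Rodko rods 3 had 396 against 958 and 898 in Pkm2Rodko rods 1 and 2, and its retina counterpart 2758 against 5183 and 7119. The part of depth and of other cells in these values was not tested. In retina the SD of Per1 was 0.054 without control retina 1, that of Cry1 0.073 without control retina 3 and that of Dbp 0.040 without Pkm2Rodko retina 2.

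The rod and retina libraries of the same genotype and number deviated together over genes with a mean of at least 50 common-scale reads. Each member's deviation from its group mean was therefore compared within these 6 pairs. The signs matched in 40 of 60 pair values of the members (66.7%), where they matched in 60.1% over all genes with a mean of at least 50 common-scale reads. They matched in 6 of 6 pairs for Clock, in 5 of 6 for Cry1, Nr1d1, Nr1d2 and Ciart, in 3 of 6 for Per2, Per3, Cry2 and Dbp and in 2 of 6 for Per1. Clock deviated in log2 units by -0.27, -0.02 and 0.29 in Pkm2Rodko rods 1 to 3 and by -0.05, -0.04 and 0.10 in the retina libraries of the same numbers. In control rods 1 to 3 Clock deviated by only -0.0039, 0.022 and -0.018, where counting alone would give it an SD of 0.046 in rods. The matching control retina libraries were at -0.035, 0.10 and -0.067. Deviations sum to 0 within a group of 3, and the share of all genes that matched in 5 or 6 pairs was not counted. Ciart deviated by 1.02 in control rods 2 and 0.49 in Pkm2Rodko rods 2, and by 0.11 and 0.21 in the matching retina libraries. Per2 in control rods 1 to 3 deviated by -0.51, 0.19 and 0.32, and Cry2 by -0.00, 0.24 and -0.24.

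**Figure D5:**
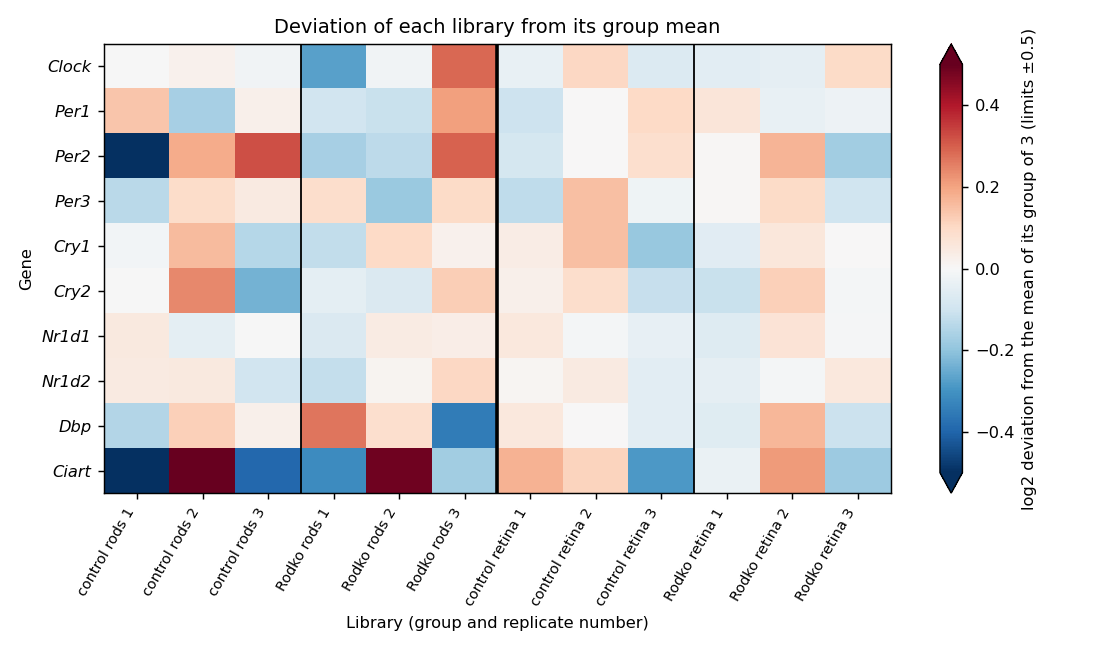
Deviation of each library from the mean of its group of 3, in log2 units (colour, limited to ±0.5), for the 10 clock genes (rows) and the 12 libraries (columns); the thick line parts rods from retina and thin lines part the genotypes. Deviations are larger in rods, where Ciart reaches 1.02 in control rods 2, and Nr1d1 stays near 0 throughout.

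Dbp is a gene with a wide daily range in many tissues, and the other 9 members were each correlated with Dbp over the 6 libraries of a fraction, 18 relations in all. On the deposited values none passed after Benjamini-Hochberg adjustment (smallest adjusted p = 0.5625) and 0 had an unadjusted p under 0.05 (two-sided exact permutation tests, where 6 libraries allow a p of 0.00278 at the smallest). The relation with the lowest p was that of Clock in rods (Pearson r = -0.853, exact permutation p = 0.0611; Spearman ρ = -0.60, exact permutation p = 0.242), and r without the 2 libraries farthest from the median of Dbp was -0.737. In retina Per1 had r = -0.741 (exact permutation p = 0.0861) and ρ = -0.771 (exact permutation p = 0.103), and r = -0.512 without the 2 farthest libraries. Ciart had r = 0.685 (exact permutation p = 0.161) and ρ = 0.771 (exact permutation p = 0.103) in retina, and r = 0.961 without the 2 farthest libraries. Each of these relations had an adjusted p of 0.5625 for r and 0.87 for ρ. In rods Per1 had r = -0.574 (exact permutation p = 0.221) and ρ = -0.257 (exact permutation p = 0.658), and Ciart r = 0.132 (exact permutation p = 0.832) and ρ = 0.0857 (exact permutation p = 0.919), with adjusted p for r of 0.568 and 0.969. Without the 2 farthest libraries these r were -0.0328 and -0.454. The 3 libraries of 1 genotype are too few for a value within it. With each group's mean removed, Per1 in rods had r = -0.933 (permutation p = 0.00417, adjusted p = 0.075) and ρ = -0.943 (permutation p = 0.0167, adjusted p = 0.30), and r = -0.986 without the 2 farthest libraries. Clock in rods then had r = -0.874 (permutation p = 0.0417, adjusted p = 0.25), but 0.302 without the 2 farthest, so that it rests on them. Ciart in retina had r = 0.806 (permutation p = 0.0403, adjusted p = 0.25) and 0.777 without them. The p-values with the group means removed are not exact and can be too small. They permute all 6 deviations freely, although the deviations sum to 0 within each genotype. The smallest adjusted p over all alternatives run was the 0.075 of Per1, so the size of these relations depends on whether the group means are removed and none passed 0.05 after adjustment.

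Over the 12 libraries, with each group's mean removed, the non-member genes most like Dbp among 12730 genes with a mean of at least 50 common-scale reads were Ntrk2 (r = 0.960), Prps2 (0.935), Fibcd1 (0.929), Rpl30 (0.919) and the gene ENSMUSG00000120316 (0.918), none of them on the clock lists. Of the clock lists, Bhlhe40 was nearest (r = 0.884, rank 24), followed by Csnk1e (0.809) and Tef (0.772). Among the members Ciart was at 0.387, Clock at -0.796 and Per1 at -0.831. These correlations describe 12 libraries that share pull-downs, depth and lysates within pairs, and no test was made of them.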

How the data were processed

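Polyadenylated RNA of rod polyribosomes (3 control and 3 Pkm2Rodko libraries) and of whole retina (3 and 3) was sequenced after cycloheximide perfusion and flash freezing. The authors deposited 1 signal table of 56748 genes: the reads of a gene over a median-of-ratios size factor that was set separately for each fraction, rounded to 1 decimal. The submitters' processing notes name CASAVA 1.8.2, HISAT2, DESeq2, edgeR and build GRCm39, without their roles. The counter, annotation and strand setting are not given in the sources used here. Whole reads were recovered: 100% of positive values were within 0.1 of a whole number of reads. Depth was 13458890 to 22790074 reads per library.

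The 10 members and all gene lists were chosen with earlier results of these data known. Genotypes were compared within a fraction with limma (3.58.1, R 4.3.3, variance trend) on log2(value + 1) over genes that averaged 1 or more in a genotype. Rods and retina, and the difference of genotype effects, were compared in 1 limma fit of 4 group means on reads scaled by TMM (edgeR 4.0.16) over 12 libraries. P-values were adjusted by Benjamini-Hochberg over all genes tested, at 0.05. The added 1 shrinks fold changes where reads are few. Nothing says that libraries came from separate animals, so p-values measure the spread between these libraries. Named in the text are all members, genes of the clock and acutely induced lists that were called or belong to the core loop, Pkm, and the 5 non-member genes with the largest r to Dbp. Adcy1, Sik1 and Drd4 in retina, Btrc, Aanat, Nampt, Egr1, Nr4a1 and single markers were named after their values were seen.

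Same-numbered rod and retina libraries of a genotype deviated together, so the numbers were taken to pair the fractions. Over 12730 genes with a mean of at least 50 common-scale reads, r was 0.273 to 0.556 in the 6 pairs. For all other numbers r was negative, in part because deviations from a mean of 3 sum to 0. The main fit of rods against retina left this pairing out, and the replicate block used it. The labels do not state a pairing. Exon lengths came from GENCODE on build GRCm38 (96.3% of tested genes, all 10 members) and promoter windows from RefSeq. Alternatives were edgeR and DESeq2 (1.42.0), other scalings, a pseudocount of 0.1, no filter, 10 reads in every library, a replicate block and each library left out. The fits were tested on simulated data first. Tables and figures used Python 3.11.15 with numpy 2.4.6, pandas 2.3.3, scipy 1.17.1 and matplotlib 3.10.9. Some genes of the lists are counted but not reported singly here.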

Additional observations from a re-analysis of the deposited data

How the results depend on the processing

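With each alternative run, 0 members were called between genotypes in rods, in retina or in their difference, and Cry1 stayed higher and Clock, Per2, Per3, Cry2, Nr1d2, Dbp and Ciart lower in rods. The 8 members called between fractions became 10 with reads scaled by total and on the deposited values, where Per1 and Nr1d1 were called lower. Scaling by total, by RLE or within fractions moved the median of all genes from -0.39 to -0.74, -0.44 and -0.75. With 10 reads required in every library the median was 0.25.

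The difference between rods and retina changed sign under total scaling for Per1 (-0.52), Nr1d1 (-0.56), Csnk1d (-0.0771), Fbxw11 (-0.39), Gsk3b (-0.23), Sirt1 (-0.11), Adcy1 (-0.34), Nampt (-0.51), Egr1 (-0.37) and Nr4a1 (-0.45). On the deposited values it did so for Per1 (-0.56), Nr1d1 (-0.59), Rora (-0.00344), Bhlhe41 (-0.00415), Csnk1d (-0.11), Fbxw11 (-0.42), Gsk3b (-0.26), Sirt1 (-0.14), Adcy1 (-0.37), Nampt (-0.54), Egr1 (-0.40), Nr4a1 (-0.48) and Fkbp5 (-0.015). With RLE it did so for Per1 (-0.0272), Nr1d1 (-0.0622) and Nampt (-0.00799), with DESeq2 for Per1 (-0.0238) and Nr1d1 (-0.0631), and with edgeR for Nr1d1 (-0.012). Leaving out each library gave -0.00636 to 0.075 for Per1 and -0.00807 to 0.025 for Nr1d1.

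Between genotypes, leaving out each library turned the sign of values near 0, none of them called. In rods the ranges were -0.11 to 0.30 for Per2, -0.015 to 0.14 for Per3, -0.012 to 0.81 for Ciart, -0.096 to 0.15 for Cry2, -0.024 to 0.095 for Nr1d2 and -0.045 to 0.24 for Clock. In retina they were -0.045 to 0.066 for Clock, -0.0386 to 0.031 for Nr1d1, -0.16 to 0.061 for Ciart, -0.073 to 0.045 for Cry2 and -0.035 to 0.14 for Cry1, and Clock in retina was at -0.00456 in 1 fit of all 12 libraries. Other values kept their sign but moved by over 1.5 times: in rods Cry1 ranged from 0.061 to 0.22, Per1 from -0.19 to -0.0099, Nr1d1 from -0.083 to -0.015 and Dbp from -0.40 to -0.097, and in retina Per1 from 0.10 to 0.21, Per2 from 0.12 to 0.28, Per3 from 0.037 to 0.18, Dbp from -0.21 to -0.079 and Nr1d2 from -0.087 to -0.025. The causes were not tested.

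With the replicate block 8 members were called between rods and retina and 0 between genotypes. Of the other clock genes, Btrc was called lower with the block (-0.15, adjusted p = 0.0189 from limma), with total scaling (-0.72), on the deposited values (-0.75), with RLE and with DESeq2 (both -0.22), without Pkm2Rodko rods 3 (-0.20) and without control retina 1 (-0.19). Egr1, an acutely induced gene, was called higher with the block (0.20, adjusted p = 0.0463 from limma). Between genotypes the same numbers do not pair the libraries (r = -0.249 to 0.026 in rods and -0.29 to 0.038 in retina), and the block moved the count over all genes from 4 to 8 in rods and from 1 to 0 in retina. In 1 fit of all 12 libraries 17 genes were called in rods, and DESeq2 called 7.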
